A study of Mus musculus with 12 samples.

Results

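Isg15, Uba7, Ube2l6, Herc6 and Usp18 encode the protein modifier ISG15 and the enzymes that join it to other proteins or remove it, and their RNA was followed here in cultured mouse macrophages. They were taken by gene symbol from a table of 40847 rows, and all 5 were found and passed the filter on low counts that left 14749 genes for testing. The study sequenced polyadenylated RNA from 12 libraries of FLAMs (fetal liver-derived alveolar-like macrophages), which are grown from mouse fetal liver as a model of the macrophages of the lung air spaces, and asked how TGFβ changes their answer to activation of the receptor TLR2. All groups were kept in GM-CSF at 30 ng/ml. The untreated group had nothing further, the TGFβ group also had recombinant human TGFβ1 at 20 ng/ml, the Pam3 group had the TLR2 ligand Pam3CSK4 at 25 ng/ml for 18 h, and the Pam3+TGFβ group had both, with 3 libraries in each group. The labels do not say how long TGFβ was present. Libraries held 34036650 to 44374115 counts. Nothing in the labels says whether the 3 libraries of a group came from separate fetuses, cell lines or wells, so the p-values measure only the spread between these libraries, which may be technical.

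ISG15 is a small protein related to ubiquitin that is joined to other proteins by a cascade like that of ubiquitin. UBA7 is the E1 enzyme that activates it, UBE2L6 the E2 enzyme that carries it, and HERC6 the main ligase that places it on targets in mouse cells. USP18 is the protease that takes ISG15 off again, and it also binds the interferon receptor chain IFNAR2 and restrains signalling there. Type I interferon is the best known inducer of all 5 genes in macrophages, acting on promoter elements named ISRE, and ISG15 is known as one of the most strongly induced of the interferon-stimulated genes.

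The label of the cells was checked against marker genes. All 5 general macrophage markers and all 8 alveolar macrophage markers had at least 10 counts in some library, but they did not move alike with TGFβ: Siglecf stood at 32.1 CPM (counts scaled to a common library size with TMM, edgeR's default) in untreated cells and at 300 CPM with TGFβ, while Fabp4 stood at 31.1 and 0.132 CPM and Marco at 2150 and 123 CPM. Summed, the 5 general markers held 30500 to 34800 CPM in untreated and 16500 to 17400 CPM in TGFβ libraries. With Pam3 the sum was 33200 to 34300 CPM, and with Pam3+TGFβ 25200 to 25900 CPM. Most of it was Lyz2 (means of 29800 CPM in untreated and 15200 CPM in TGFβ cells). Cd68 stood at 858 and 549 CPM, Csf1r at 983 and 820 CPM, Adgre1 at 303 and 145 CPM, and Mertk at 223 and 222 CPM. Of the markers of other cell types, the lymphocyte genes Cd3e and Ncr1, the mast cell gene Mcpt4, the lung epithelial gene Sftpc, the hepatocyte gene Ttr and the granulocyte gene Mpo had no count in any library. Other markers on the same lists were present: the hepatocyte and fetal liver gene Afp stood at 5.77, 5.9, 7.02 and 9.27 CPM in untreated, TGFβ, Pam3 and Pam3+TGFβ cells, nearly all of the summed level of the 4 hepatocyte markers (5.8 to 5.87 CPM in untreated and 8.41 to 10.1 CPM in Pam3+TGFβ libraries). The dendritic cell gene Zbtb46 stood at 4.64, 1.42, 4.11 and 1.55 CPM in that order, Xcr1 on the same list at 0.398, 0.207, 0.439 and 0.519 CPM, and the mast cell gene Cpa3 at 0.599, 0.0334, 0.406 and 0.0452 CPM. The summed level of the 3 epithelial markers was 0 to 0.0789 CPM in untreated and 1.38 to 1.83 CPM in TGFβ libraries. With Pam3 it was 0.0635 to 0.133 CPM and with Pam3+TGFβ 1.72 to 2.25 CPM, nearly all of it Epcam. The 5 neutrophil markers summed to 13.1 to 15.5, 3.14 to 4.96, 15.8 to 16.1 and 4.77 to 5.38 CPM in the same order. Most of this was S100a8 (means of 13.8, 3.07, 15.4 and 3.98 CPM), while S100a9 stood at 0.253, 0.993, 0.5 and 1.16 CPM. Of the 3 endothelial markers, Pecam1 stood at 0.895 and 2.46 CPM in untreated and TGFβ cells, Cdh5 at 0.888 and 0.0514 CPM, and Kdr at 0.865 and 0.082 CPM. The part of such shifts in the results was not tested. In bulk RNA, a change in the share of cells that express a gene and a change in RNA per cell cannot be told apart.

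Isg15 lies on chromosome 4 (156283883 to 156285303, minus strand of GRCm39, 2 merged exons). Uba7 is on chromosome 9 (107852704 to 107861262, plus strand, 14 merged exons), Ube2l6 on chromosome 2 (84628630 to 84640783, plus strand, 6 merged exons), Herc6 on chromosome 6 (57557932 to 57642597, plus strand, 21 merged exons), and Usp18 on the same chromosome (121222848 to 121247877, plus strand, 12 merged exons). All are protein-coding. Because the members rose together with Pam3+TGFβ, the 250 bases upstream of the RefSeq start were searched for letters of interferon response elements, on both strands, in the 4 members with an entry in the RefSeq promoter table (Isg15, Uba7, Ube2l6 and Herc6). The ISRE letters searched were GAAANNGAAA, and the shorter core of interferon regulatory factor sites was AANNGAAA, which every GAAANNGAAA contains. Isg15 held 3 overlapping matches to GAAANNGAAA, between 78 and 57 bases upstream, and 1 further match to AANNGAAA on the other strand. Uba7 held 1 match to AANNGAAA, on the other strand, and none to the longer letters, and Ube2l6 and Herc6 held no match to either in this window. None of the 4 held TTCNNNGAA, the letters of the GAS element known from interferon-gamma signalling. Of 32851 RefSeq windows (GRCm38.p6 table), 2.98% held GAAANNGAAA, 21.3% AANNGAAA and 7.02% TTCNNNGAA. A match is a description of letters, and the absence of one says only that they are not in this window. The sequences with matches are shown 5′ to 3′ on the strand of the gene, with the matched letters in capitals. Both were placed on GRCm39 by an exact match, at chr4:156285304-156285425 on the minus strand for Isg15 and chr9:107852728-107852757 on the plus strand for Uba7.
Isg15: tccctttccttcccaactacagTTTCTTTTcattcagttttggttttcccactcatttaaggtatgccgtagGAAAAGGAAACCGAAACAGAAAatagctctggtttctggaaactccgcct
Uba7: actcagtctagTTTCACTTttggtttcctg
The Uba7 stretch lies inside an exon of that gene in the GENCODE M39 annotation, which places a start further upstream, so it is shown at 30 bases. Of the 150 bases next to the RefSeq start, 28 lay in GENCODE exons of the gene for Isg15, 45 for Herc6, 62 for Uba7 and all 150 for Ube2l6. All of the bases searched for Ube2l6 lie inside the gene as placed above. The absence of a match there says nothing about the bases upstream of that gene.

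The modifier itself moved across a wide range. Isg15 had 2.52, 3.9 and 2.31 CPM in the untreated libraries (96, 162 and 81 counts) and 1.13, 1.46 and 1.39 CPM with TGFβ (41, 59 and 53 counts). It had 20.9, 18.8 and 16.6 CPM with Pam3 and 76.5, 84.4 and 79.1 CPM with Pam3+TGFβ. The 4 groups did not overlap, and their order from low to high was TGFβ, untreated, Pam3, Pam3+TGFβ, with each neighbouring pair called different. Pam3 raised Isg15 6.4-fold without TGFβ (log2 fold change 2.68, SE 0.138, edgeR adjusted p 1.18e-11) and 60-fold with TGFβ (5.91, SE 0.154, adjusted p 1.51e-17). TGFβ lowered it in resting cells (log2 fold change -1.14, SE 0.184, adjusted p 2.38e-05) and raised it in the presence of Pam3 (2.09, SE 0.115, adjusted p 2.75e-12). Untreated replicate 2 was the highest of its group, and the fall in resting cells was -0.86 without it (adjusted p 4.1e-05). On the linear scale, Pam3 added 15.9 CPM without TGFβ and 78.7 CPM with it.

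**Figure D1:**
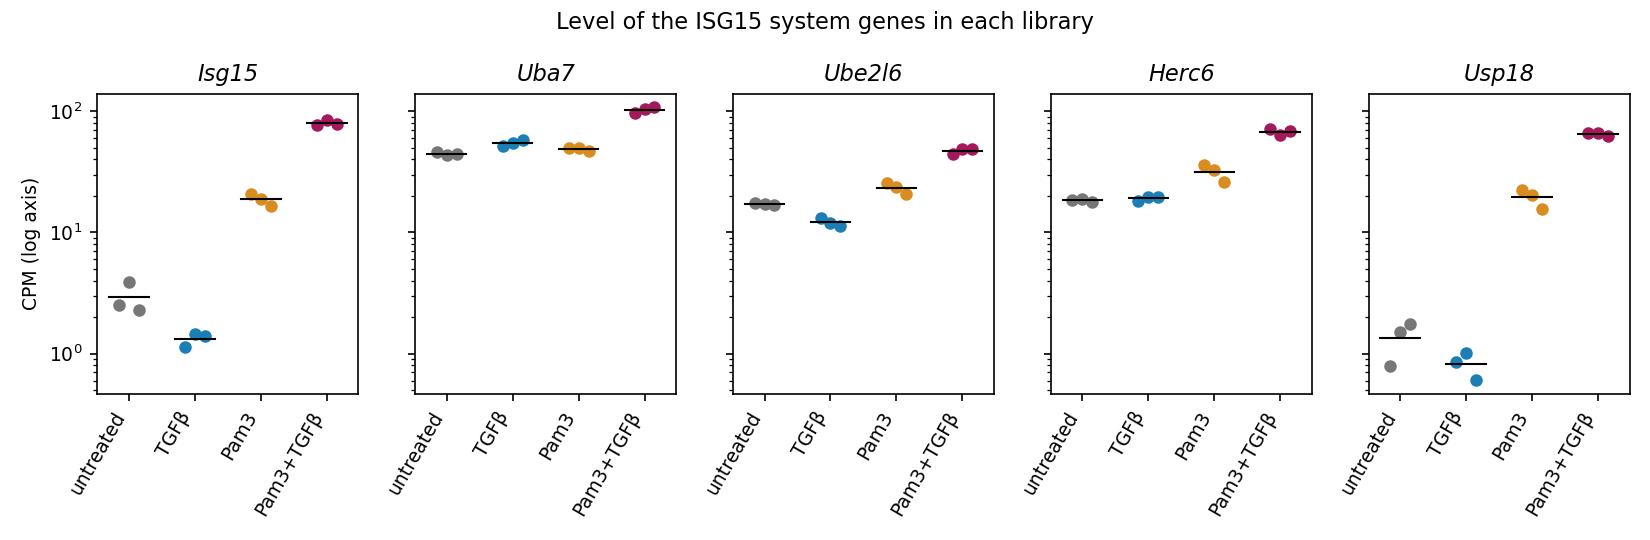
CPM of each gene (log axis) in each of the 12 libraries, as points by group, with a bar at the mean of the 3 libraries. Pam3+TGFβ is the highest group for all 5 genes; Isg15 and Usp18 span the widest range, from a mean of 1.33 and 0.824 CPM with TGFβ to 80 and 65.2 CPM with Pam3+TGFβ.

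The E1 enzyme gene hardly moved with Pam3 alone. Uba7 had 46.1, 43.5 and 44.4 CPM in untreated cells, 49.6, 49.5 and 46.7 CPM with Pam3, 51.9, 55 and 58.4 CPM with TGFβ, and 96.4, 104 and 108 CPM with both. The Pam3 libraries stood just above the untreated ones without overlap, but the difference was not called (log2 fold change 0.12, SE 0.061, edgeR adjusted p 0.189). TGFβ by itself raised Uba7 1.23-fold (log2 fold change 0.30, SE 0.061, adjusted p 0.000172), and Pam3 raised it 1.87-fold in cells with TGFβ (0.90, SE 0.06, adjusted p 3.77e-12). With Pam3 present, TGFβ raised it 2.12-fold (1.08, SE 0.061, adjusted p 9.17e-14). Levels with Pam3 alone and with TGFβ alone were not tested against each other.

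The E2 enzyme gene followed the same order of groups as Isg15 over a narrower range. Ube2l6 had 17.6, 17 and 16.7 CPM in untreated cells, 13.1, 11.9 and 11.4 CPM with TGFβ, 25.6, 23.8 and 20.8 CPM with Pam3, and 44.6, 48.9 and 48.4 CPM with both, with no overlap between groups. Pam3 raised it 1.37-fold without TGFβ (log2 fold change 0.46, SE 0.084, edgeR adjusted p 0.000261) and 3.89-fold with TGFβ (1.961, SE 0.086, adjusted p 8.1e-16). TGFβ lowered it in resting cells (log2 fold change -0.49, SE 0.087, adjusted p 3.27e-05), and raised it 2.02-fold in the presence of Pam3 (1.012, SE 0.082, adjusted p 1.17e-10).

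Herc6, the ligase gene, differed by less than the spread of the libraries between resting cells with and without TGFβ. It had 18.6, 18.8 and 17.8 CPM in untreated cells and 18.3, 19.6 and 19.6 CPM with TGFβ, groups that overlapped (log2 fold change 0.06, SE 0.089, edgeR adjusted p 0.638). With Pam3 it had 36.1, 32.9 and 26.1 CPM, and with Pam3+TGFβ 70.7, 63.9 and 69.2 CPM. Pam3 raised it 1.72-fold without TGFβ (0.79, SE 0.088, adjusted p 2.76e-07) and 3.55-fold with TGFβ (1.83, SE 0.088, adjusted p 7.38e-15), and TGFβ raised it 2.14-fold in the presence of Pam3 (1.10, SE 0.085, adjusted p 6.58e-11).

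Usp18, the gene of the ISG15 protease, was the lowest of the 5 in CPM in resting cells and had the largest fold rise with Pam3 of the 5, with and without TGFβ. In CPM added by Pam3 with TGFβ it came after Isg15 (64.3 and 78.7 CPM). It had 0.789, 1.52 and 1.74 CPM in untreated libraries (30, 63 and 61 counts), while the TGFβ libraries held 31, 41 and 23 counts (a mean of 0.824 ± 0.207 CPM, SD, n = 3), and these groups overlapped. It had 22.4, 20.5 and 15.7 CPM with Pam3 and 66.5, 66.7 and 62.3 CPM with Pam3+TGFβ. Pam3 raised Usp18 14.5-fold without TGFβ (log2 fold change 3.86, SE 0.196, edgeR adjusted p 1.23e-09) and 78.5-fold with TGFβ (6.29, SE 0.207, adjusted p 8.47e-13), and TGFβ raised it 3.32-fold in the presence of Pam3 (1.73, SE 0.144, adjusted p 7.16e-08). The TGFβ effect in resting cells was -0.70 (SE 0.291, adjusted p 0.0584), which was not called, but it was -0.95 without untreated replicate 1, the library with 30 counts (adjusted p 0.0018), and was also called by DESeq2 (-0.69, adjusted p 0.0379) and without a filter (-0.70, adjusted p 0.000751). Few counts in these libraries limit the comparison.

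**Figure D2:**
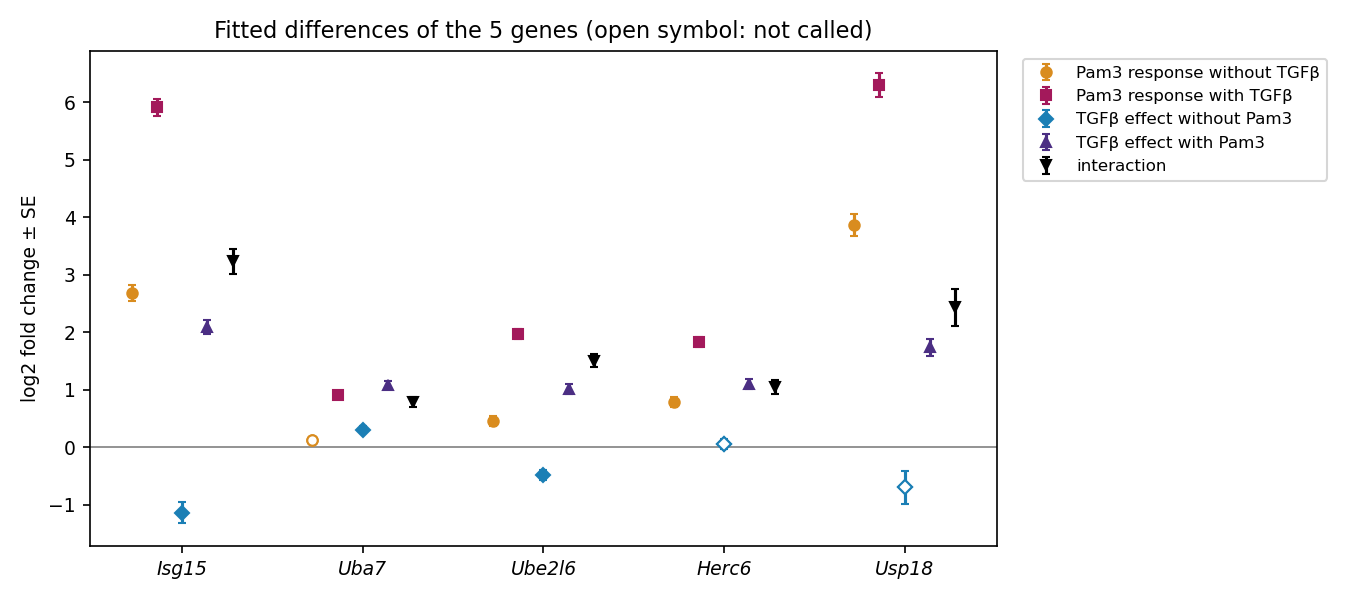
Log2 fold change with its standard error for each gene in the 4 pairwise comparisons and the interaction, each from 3 libraries per group; an open symbol was not called at an adjusted p of 0.05. Values lie on both sides of 0 for the TGFβ effect in cells without Pam3, and above 0 for all 5 genes in each of the other 4 fitted differences.

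Counted over the members, Pam3 without TGFβ raised 4 of 5, all but Uba7, where 9.62% of the 14749 tested genes were called higher. Pam3 with TGFβ raised 5 of 5, against 20.4% of tested genes called higher. In resting cells TGFβ lowered 2 (Isg15 and Ube2l6; 28.1% of tested genes were called lower) and raised 1 (Uba7; 22.9% called higher), which is near the share among all tested genes. In the presence of Pam3 it raised 5 of 5, against 21.5% called higher. The median log2 fold change of the members was 0.79 for Pam3 without TGFβ and 1.961 with TGFβ, -0.49 for TGFβ without Pam3 and 1.10 with Pam3, while the medians over all tested genes were 0, -0.019, -0.008 and -0.002 in the same order. Pam3 replicate 3 was the lowest of the 3 Pam3 libraries for each of the 5 genes. Without it, the Pam3 response without TGFβ was 0.91 for Herc6 and 3.99 for Usp18, and the TGFβ effect with Pam3 was 0.98 and 1.61, all still called.

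The interaction asks whether the Pam3 response itself differed between cells with and without TGFβ. It was called for all 5 members, each with the larger response in the presence of TGFβ, where 10.3% of tested genes were called in that direction. It was 3.23 for Isg15 on the log2 scale (SE 0.214, edgeR adjusted p 4.55e-10), so the Pam3 fold was 9.37 times larger with TGFβ. Usp18 had 2.43 (SE 0.323, adjusted p 6.36e-05), Ube2l6 1.505 (SE 0.119, adjusted p 5.98e-10), Herc6 1.04 (SE 0.123, adjusted p 6.53e-07) and Uba7 0.78 (SE 0.086, adjusted p 1.77e-07). In Isg15 and Ube2l6 the interaction combined a lower resting level with a higher Pam3 level in cells with TGFβ. In Herc6 the resting levels overlapped, and the interaction lay close to the TGFβ effect in the presence of Pam3 (1.04 and 1.10). In Uba7 both TGFβ effects were positive, 0.30 at rest and 1.08 with Pam3. Among all tested genes, 0.732% had a larger interaction than Isg15, 1.38% than Usp18, 3.13% than Ube2l6, 5.17% than Herc6 and 7.36% than Uba7.

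**Figure D3:**
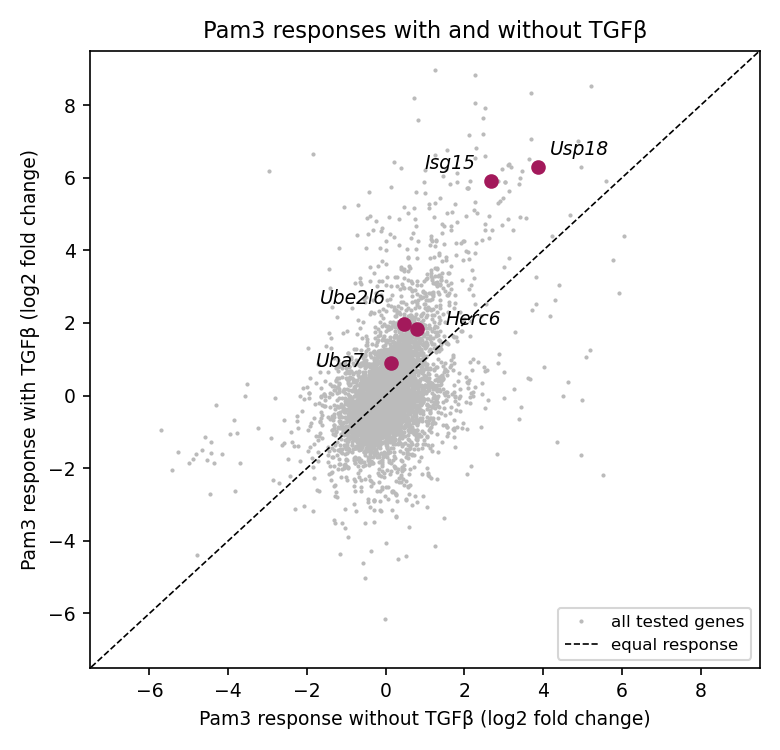
Pam3 response with TGFβ (vertical, log2 fold change) against that without TGFβ (horizontal) for 14749 tested genes in grey and the 5 ISG15 system genes as large points; the dashed line marks equal responses. The comparisons share no library. All 5 genes lie above the line, with Isg15 at 2.68 and 5.91 and Uba7 at 0.12 and 0.90.

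Because the genes differ in length, their levels were set beside each other as CPM per kb of exon, using the merged exons of GENCODE M39. In untreated cells Uba7 (6.67 ± 0.193, SD, n = 3) and Ube2l6 (6.1 ± 0.181) were the highest on this scale, followed by Isg15 (3.72 ± 1.1), Herc6 (1.77 ± 0.0504) and Usp18 (0.415 ± 0.153). With Pam3+TGFβ, Isg15 stood at 102 ± 5.17 CPM per kb, Usp18 at 20 ± 0.769, Ube2l6 at 16.9 ± 0.841, Uba7 at 15.4 ± 0.897 and Herc6 at 6.51 ± 0.343. Isg15 thus went from the third to the first place and Usp18 from the last to the second. These places, and the sums and shares below, depend on the exon lengths used. Those were 782 bases for Isg15, 2802 for Ube2l6, 3250 for Usp18, 6695 for Uba7 and 10434 for Herc6. The sum over the 5 genes was 18.7 ± 1.03 CPM per kb at rest, 16.3 ± 0.379 under TGFβ, 48.7 ± 5.44 under Pam3 and 161 ± 6.56 under both. Isg15 made up 19.8 ± 4.69% of this sum in the untreated group, 10.4 ± 1.11% under TGFβ, 49.3 ± 0.576% under Pam3 and 63.5 ± 0.807% under both. Usp18 made up 2.23 ± 0.854%, 1.55 ± 0.397%, 12.3 ± 0.889% and 12.5 ± 0.639% in the same order.

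**Figure D4:**
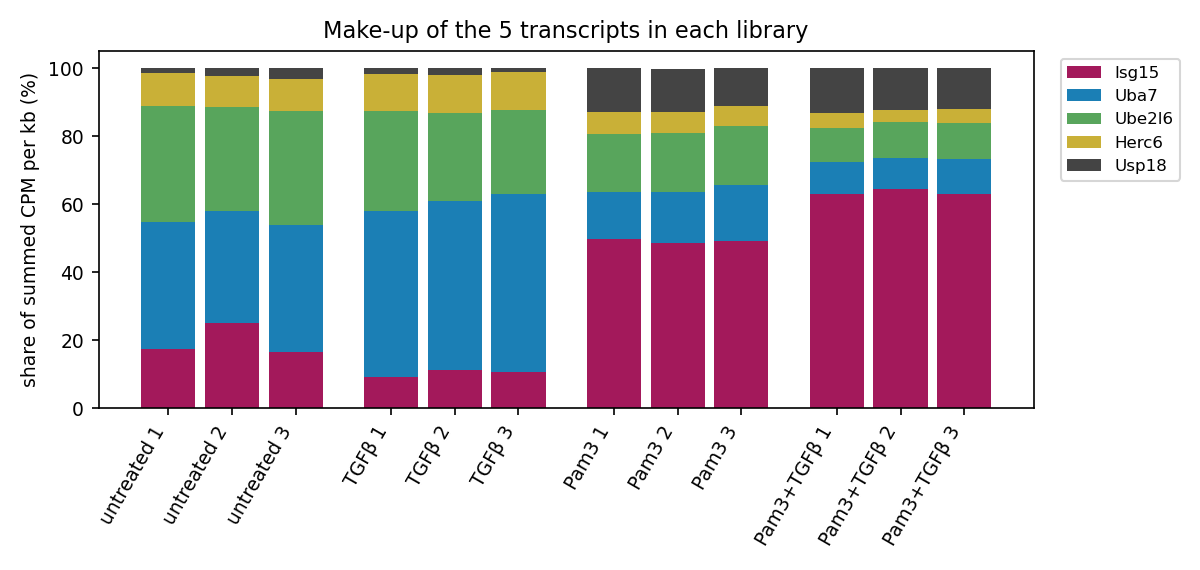
Share of each of the 5 genes in their summed CPM per kb (vertical, percent) in each library. Uba7 and Ube2l6 take up most of each bar without Pam3, and Isg15 takes up 48.7% to 49.9% of the Pam3 bars and 63% to 64.4% of the Pam3+TGFβ bars.

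Ratios within a library do not depend on how libraries are scaled against each other. The gene of the removing enzyme was scarce beside those of the joining enzymes at rest, with 0.0626 ± 0.0241 Usp18 per Uba7 in CPM per kb in untreated cells and 0.0311 ± 0.0087 with TGFβ (SD, n = 3). With Pam3 this ratio was 0.933, 0.853 and 0.693, and with both agents 1.42, 1.32 and 1.18. The Pam3 and Pam3+TGFβ libraries overlapped neither each other nor the libraries without Pam3. Untreated libraries (0.0353, 0.0718 and 0.0807) overlapped with TGFβ libraries (0.0341, 0.0379 and 0.0213). Usp18 per Ube2l6 was 0.0685 ± 0.0268, 0.0584 ± 0.014, 0.716 ± 0.0568 and 1.19 ± 0.0907 in untreated, TGFβ, Pam3 and Pam3+TGFβ cells. Usp18 per Herc6 was 0.236 ± 0.0907, 0.139 ± 0.0353, 1.98 ± 0.0404 and 3.09 ± 0.237 in that order. The modifier and its protease stayed closer to each other: Isg15 per Usp18 was 3.88, 3.82 and 4.37 with Pam3 and 4.78, 5.26 and 5.28 with Pam3+TGFβ, and it ranged from 5.5 to 13.3 over the 6 libraries without Pam3. These ratios are given as a description with no test, and their absolute size depends on the exon lengths used.

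Likeness of profile was measured over the 12 libraries as the root mean square difference of log2 CPM after each gene's own mean was subtracted, so that a small value means the same changes of the same size. All libraries enter every comparison, so this is a description of these libraries only. The closest genes to Isg15 were Ifit2 (0.179), Mx2 (0.237) and Irf7 (0.308), and those to Usp18 were Cmpk2 (0.333), Rsad2 (0.333) and Ifit1 (0.376). Ube2l6 was closest to Bst2 (0.108), Pml (0.138) and Tlr2 (0.14), Herc6 to Parp9 (0.109), Sap30 (0.118) and Procr (0.133), and Uba7 to Hsd17b7 (0.0996), Fcgr1 (0.102) and Trim12a (0.114). By this measure the members differed in how close they were to each other. Usp18 was the 16th closest gene to Isg15 and Isg15 the 9th closest to Usp18 (0.535), and Herc6 was the 28th closest to Ube2l6 and Ube2l6 the 36th closest to Herc6 (0.223), whereas Uba7 was the 753rd closest to Isg15 and Isg15 the 14466th closest to Uba7 (1.99). As an example of levels, Ifit2 stood at 6.97 ± 2.33, 3.61 ± 0.365, 44.6 ± 8.21 and 226 ± 9.48 CPM in untreated, TGFβ, Pam3 and Pam3+TGFβ cells (SD, n = 3).

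Other genes of the pathway and its relatives were read from 8 lists of 64 genes in all, of which 62 were tested. In the interaction 8 of these 62 were called higher by edgeR (11 by DESeq2) and 0 lower (1 at an unadjusted p under 0.05, 0 by DESeq2), against 10.3% and 5.67% of all tested genes. Usp2, a protease reported to act on ISG15 and picked out after its values were seen, had -0.46 (adjusted p 0.0713), and was called lower with upper-quartile scaling (-0.50, adjusted p 0.0431), without TGFβ replicate 1 (-0.57, adjusted p 0.027) and without Pam3+TGFβ replicate 3 (-0.56, adjusted p 0.0376). Their median was 0.076, with values from -0.457 to 1.15, while the members' median was 1.505 and that of all tested genes 0.005. The genes of the interferon receptor that USP18 acts on, of its kinases and of the factor ISGF3, listed with another gene, had 3 of 7 called higher, the most of any list. These were Stat2, Irf9 and Tyk2, with no receptor chain among them. Stat2 stood at 80.3 ± 1.43, 94.9 ± 6.18, 162 ± 7.08 and 425 ± 3.79 CPM in untreated, TGFβ, Pam3 and Pam3+TGFβ cells (SD, n = 3). The interaction for this gene was 1.15 (SE 0.068, adjusted p 3.67e-12), and that of Irf9 was 0.66 (SE 0.09, adjusted p 4.37e-06). Tyk2, a kinase bound to IFNAR1, had 0.25 (SE 0.064, adjusted p 0.00864), which was not called in 3 of 12 fits without 1 library (without untreated replicate 1, TGFβ replicate 2 or Pam3+TGFβ replicate 1). Unlike Stat2 and Irf9, which rose with Pam3 both without and with TGFβ, Tyk2 had -0.18 with Pam3 without TGFβ (adjusted p 0.00605) and 0.07 with it (adjusted p 0.276), and the former was not called without untreated replicate 1 (-0.15, adjusted p 0.0573). In resting cells, where Isg15 and Ube2l6 fell with TGFβ, Stat2 was called higher with it (0.24, adjusted p 0.000165). Of the receptor chains, Ifnar1 was lower with TGFβ both at rest (-0.45, adjusted p 2.24e-07) and with Pam3 (-0.25, adjusted p 0.000505). Ifnar2, the chain that USP18 binds, was lower with TGFβ at rest (-0.26, adjusted p 0.000568) and had -0.09 with Pam3 (adjusted p 0.246). Their interactions were 0.19 and 0.17 and were not called (adjusted p 0.102 and 0.178).

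The other reported ISG15 ligases, E2 enzymes and proteases had 1 of 10 tested genes called in the interaction. It was Trim25, also described as an ISG15 ligase, which stood at 163 ± 5.91 CPM in untreated cells and 354 ± 7.07 CPM with Pam3+TGFβ (SD, n = 3), with an interaction of 0.33 (SE 0.057, adjusted p 0.000156). The E2 relatives of Ube2l6 had 2 of 11 called higher, Ube2f at 0.48 (adjusted p 0.00114) and Ube2l3, the closest relative of Ube2l6, at 0.19 (adjusted p 0.042), the latter not called with upper-quartile scaling (adjusted p 0.129) and not in 9 of 12 fits without 1 library. With Pam3 present, the TGFβ effect was not called for Ube2f or Ube2l3 (0.07 and -0.08). At rest both were called lower with TGFβ (-0.42 and -0.27). The HERC ligases had 1 of 4, Herc3 at 0.40 (adjusted p 0.00777), and the USP relatives of Usp18 had 1 of 8, Usp25 at 0.45 (adjusted p 1.06e-05). The list of ubiquitin and other ubiquitin-like modifiers had 0 of the 11 genes reported here called by edgeR, with values from -0.186 to 0.198 (1 at an unadjusted p under 0.05, 0 called by DESeq2). The E1 enzymes of other modifiers had 0 of 9 called in the interaction by edgeR, with values from -0.124 to 0.213 (2 at an unadjusted p under 0.05, 1 called by DESeq2). The genes of the receptor that secreted ISG15 can bind, Itgal and Itgb2, had 0 of 2 by edgeR (1 at an unadjusted p under 0.05, 1 by DESeq2). Itgal, picked out after its values were seen, stood at 418 ± 6.03 CPM in untreated and 1120 ± 37.6 CPM in TGFβ cells (SD, n = 3), and the fitted difference was 1.42 on the log2 scale (SE 0.049, adjusted p 4.34e-18).

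**Figure D5:**
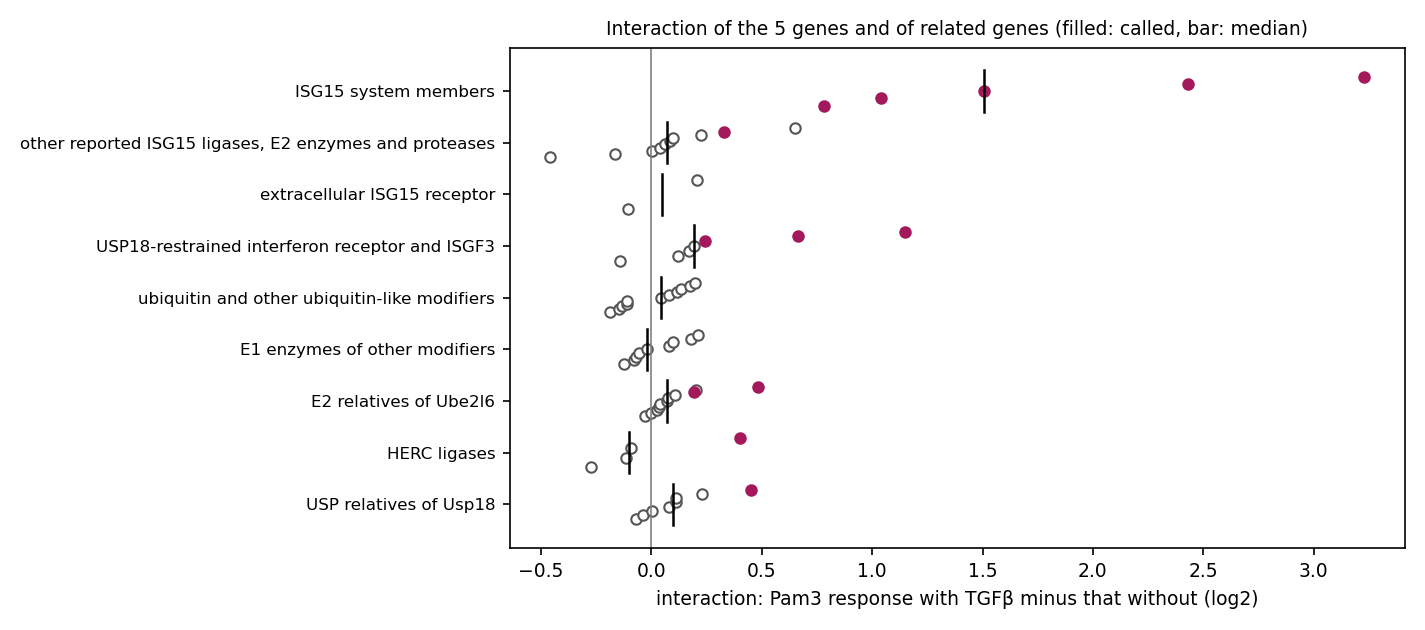
Interaction (horizontal, log2; Pam3 response with TGFβ minus that without) of the 5 ISG15 system genes and of 62 related genes by list; each point is a gene, filled where called at an adjusted p of 0.05, and the bar marks the list median. The 5 genes lie from 0.78 to 3.23, and the related genes from -0.457 to 1.15.

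Some reads of the members could belong to overlapping genes, since the strand setting of the counting is not given in the sources used here. Of the annotated genes that share exon bases with a member, 4 antisense ones are listed in the table. Gm46878 at Isg15 had 0 to 20, Gm44148 at Usp18 0 to 5, and Smtnl1 at Ube2l6 0 to 1, while Inka1, which shares 39 bases with Uba7, had 130 to 362. The others are not listed there: on the same strand, where a strand setting cannot separate reads, Gm45193 shares 1269 bases with Herc6 and Gm20661 shares 233 with Uba7, and on the opposite strand Gm66279 shares 459 with Herc6 and Gm75306 shares 344 with Ube2l6.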

How the data were processed

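Per the labels' protocols, the authors used a stranded mRNA kit. The submitters' processing notes name Bowtie2 2.4.1, featureCounts of Subread 2.0.0 and the build GRCm39. Which annotation was counted, with which strand setting, and how reads with several hits were handled is not given in the sources used here. The deposited values used are raw read counts per gene symbol, 1 column per library. The authors' scaled table was not used.

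Genes were filtered with filterByExpr (minimum count of 10), scaled with TMM and tested with edgeR 4.0.16 (R 4.3.3; robust quasi-likelihood), with 4 group means over all 12 libraries. A gene was called where its p, adjusted by Benjamini-Hochberg over 14749 tested genes, was under 0.05. The SE is the log2 fold change divided by the square root of F. No pair of libraries in a group looked like 1 library deposited again (chi-square over its degrees of freedom 9.99 to 220). This value was uneven within groups. It was 17.7 for untreated replicates 1 and 2, but 159 and 183 for pairs with replicate 3. For TGFβ replicates 1 and 3 it was 16, against 161 and 217 for pairs with replicate 2. For Pam3 replicates 2 and 3 it was 24.6, against 133 and 220 for pairs with replicate 1. Pam3+TGFβ pairs had 9.99 to 28. The reads carry no molecular identifiers. The procedure was tested on simulated counts in which few genes were changed, and only in the Pam3+TGFβ group. The data have many more called genes, with differences in several groups, so the simulation does not cover such conditions.

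All members are named. Lists name up to 3 genes with the largest called interaction, with Ube2l3, Ifnar1 and Ifnar2 added, and the 3 closest genes by profile. Itgal, Itgb2 and Usp2 fall outside this rule. Alternatives were other scalings (DESeq2-type and upper-quartile), DESeq2 1.42.0, other filters, a replicate block, fits of the 6 libraries compared, and leaving out each library. The members and lists were chosen with earlier results of these data known. Positions and lengths come from GENCODE M39 (GRCm39), promoters from RefSeq. Some genes of the lists are not reported here and stay out of their counts. Protein sequences were not used here.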

Additional observations from a re-analysis of the deposited data

Results flagged for a closer look

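Each of these genes is listed because its interaction was called (edgeR, log2 scale) and positive, so that the log2 fold change with Pam3 was higher where TGFβ was present. Of all tested genes, 10.3% were called in that direction, and the 8 of 62 related genes called are near that share. The members had 3.23 (Isg15), 2.43 (Usp18), 1.505 (Ube2l6), 1.04 (Herc6) and 0.78 (Uba7). Of the related genes named, Stat2 had 1.15, Irf9 0.66, Ube2f 0.48, Usp25 0.45, Herc3 0.40, Trim25 0.33, Tyk2 0.25 and Ube2l3 0.19. For Tyk2 the fold change with Pam3 was -0.18 without TGFβ, called lower except without untreated replicate 1 (-0.15), and 0.07 with it, not called. The interaction of Tyk2 was not called in 3 of the 12 fits without 1 library, and Ube2l3 not in 9. Causes were not tested.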

How the results depend on the processing

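The 25 member comparisons kept their direction under all alternatives, and 24 of them kept their side of the threshold. The exception was the TGFβ effect on Usp18 in resting cells, which was called by DESeq2 (-0.69) and without a filter (-0.70), and lay between -0.95 and -0.49 in the 12 fits without 1 library, called in 3 of them (without untreated replicate 1, Pam3 replicate 1 or Pam3 replicate 3); the cause was not tested. In those 12 fits the interaction lay between 2.95 and 3.37 for Isg15, 2.23 and 2.68 for Usp18, 1.44 and 1.58 for Ube2l6, 0.93 and 1.15 for Herc6, and 0.72 and 0.80 for Uba7. The number of genes called in the interaction ran from 1902 to 2430 in those fits and from 2346 to 2577 in the others. With the replicate block, the interactions were 3.22, 2.44, 1.51, 1.04 and 0.78 in the same order, and no call of a member changed. Same-numbered libraries deviated together (r over 0.1) in 7 of 18 pairs, and 5 of 12 libraries correlated best with one of their own number, so the numbers were not taken to pair the libraries. Pairs with the same number had r from -0.174 to 0.3, and pairs with different numbers from -0.397 to 0.323. Whether an unlabelled factor shared across groups lies behind these deviations was not tested. The 20 mean levels moved by less than 1 SD under both other scalings. Among related genes named, the Pam3 response without TGFβ, not called, changed sign for Ube2l3 (-0.0360 to 0.0135 in fits without 1 library, above 0 without untreated replicate 2 and, at 0.000902, without Pam3 replicate 3). Low counts limit Usp18 (23 to 63) and Isg15 (41 to 162) in libraries without Pam3.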
